A study of Mus musculus with 24 samples.

Results

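The hepatic growth hormone axis was examined through 10 genes, taken by symbol from a table of 34945 named genes. They are Ghr, Jak2, Stat5a, Stat5b, Igf1, Igfals, Socs2, Cish, Bcl6 and Cux2, and all 10 reached the mean of 1 TPM that admitted 10551 genes to testing. TPM is the share of transcripts that a gene takes in a library, corrected for its length. Levels were available for 24 mouse liver libraries in 8 groups of 3, all from mice fasted for 4 h. WT livers were FoxO1lox/lox and PPARαlox/lox with no Cre named. LFKO livers were labelled FoxO1-/-, LPKO livers PPARα-/-, and LFPKO livers carried both labels. Floxed mice were crossed with Albumin-cre, a driver of hepatocytes, so other liver cells keep both genes. Each genotype was sampled on a regular diet (RD) and after 3 weeks of high-fat diet (HFD), and the labels give neither age, sex nor strain. Nothing in them says that the replicates of a group were separate mice, and p-values then reflect only how far these libraries vary, which may be technical.

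Growth hormone from the pituitary binds its receptor, encoded by Ghr, on hepatocytes and activates the kinase JAK2, which phosphorylates STAT5A and STAT5B. STAT5 then enters the nucleus and drives the liver's output of the hormone IGF1, its serum carrier subunit ALS (Igfals) and the feedback inhibitors SOCS2 and CIS (Cish). The timing of growth hormone pulses differs between male and female mice and sets much of the sex difference in liver expression, in which the repressors BCL6 and CUX2 take part. BCL6 holds down genes that are higher in females, and CUX2 acts mostly against genes that are higher in males.

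The labels and tissue were checked first. Foxo1 was at most 0.484 TPM in the LFKO and LFPKO libraries and at least 4.06 TPM in the others. Ppara was not lower in LPKO or LFPKO libraries, at 57.5 to 87.3 TPM, than in the others, at 37.1 to 68.8 TPM. A TPM over the whole gene can include transcripts that lack a deleted exon, so it does not check the PPARα label. The hepatocyte genes Alb (19027 to 67025 TPM) and Hnf4a (98.1 to 179 TPM) were present throughout, and the Y-linked Ddx3y was at 13.4 to 21.5 TPM in all 24 libraries. The major urinary protein (Mup) genes took 7.99 to 11.7% of the listed TPM in RD WT and 20.1 to 30.7% in HFD WT libraries, against 6.5 to 17.7% in HFD LFKO. Because TPM are shares, the median log2 fold change of all tested genes was -0.29 for HFD against RD in WT livers and 0.21 for LFKO against WT on HFD. Median-of-ratios scaling, which brings such medians to about 0, is quoted where it changes the call of an axis gene or of a list gene named with its value. TPM hold no read counts, so sequencing depth is unknown.

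The promoters of Cish and Bcl6 are printed because they hold more than 1 match to the STAT5 palindrome TTCNNNGAA; both genes are known STAT5 targets. RefSeq promoters of 300 bases (250 before and 50 after a start site, GRCm38.p6) were found for 9 of the 10 genes, 16 promoters in all. No entry was found for Socs2, so its promoter was not searched. A match stood in 8.29% of 32817 promoters, at least 2 in 0.457% and at least 3 in 0.0335%. Capitals mark the matches, the strand is that of the gene, and position 1 is the first transcribed base. The Cish window (chr9:107296509-107296683, plus strand) runs from 150 bases before to 25 after the start, with matches beginning at positions 1 and 12. The Bcl6 window (chr16:23981284-23981483, minus strand) covers the 200 bases before the downstream of its start sites, with matches at -168, -122 and -88.
Cish: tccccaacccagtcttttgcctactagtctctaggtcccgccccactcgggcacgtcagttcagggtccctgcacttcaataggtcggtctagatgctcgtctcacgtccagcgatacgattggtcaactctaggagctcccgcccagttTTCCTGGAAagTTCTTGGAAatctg
Bcl6: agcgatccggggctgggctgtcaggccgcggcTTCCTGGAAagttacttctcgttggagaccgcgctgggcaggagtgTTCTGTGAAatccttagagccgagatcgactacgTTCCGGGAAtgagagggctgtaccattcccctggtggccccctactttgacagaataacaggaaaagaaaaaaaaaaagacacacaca
The other Bcl6 promoter held 1 match at -118, and Igfals held 1 in each of 2 of its 3 promoters, at -236 and -58. The promoters of Ghr, Jak2, Stat5a, Stat5b, Igf1 and Cux2 held none in these windows. The forkhead motif GTAAACA, searched on both strands and found in 3.65% of promoters, had 1 match among the members' promoters, at position -242 of an Igfals promoter. The PPAR-RXR direct repeat (both strands, 0.0396% of promoters) had no match among them. A match is a run of letters and does not show binding.

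On the length-corrected TPM scale the output genes and the receptor were far more abundant than the signalling and repressor genes. Averaged over the 24 libraries, Igf1 stood at 456 TPM, Ghr at 297 TPM and Igfals at 59.9 TPM. Socs2 averaged 15.3 TPM, Cish 13.1 TPM, Stat5b 9.83 TPM and Bcl6 5.19 TPM. Jak2 at 3.88 TPM, Stat5a at 3.4 TPM and Cux2 at 2.36 TPM were the lowest. The genes also differed in how tightly replicates agreed. The median coefficient of variation within a group was 7.52% for Igf1 and 7.66% for Ghr, but 36.3% for Socs2, 58.2% for Cish and 59.2% for Bcl6. The highest library exceeded the lowest 1.69-fold for Igf1 and 1.78-fold for Ghr, against 12.2-fold for Cish and 12.9-fold for Cux2.

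**Figure D1:**
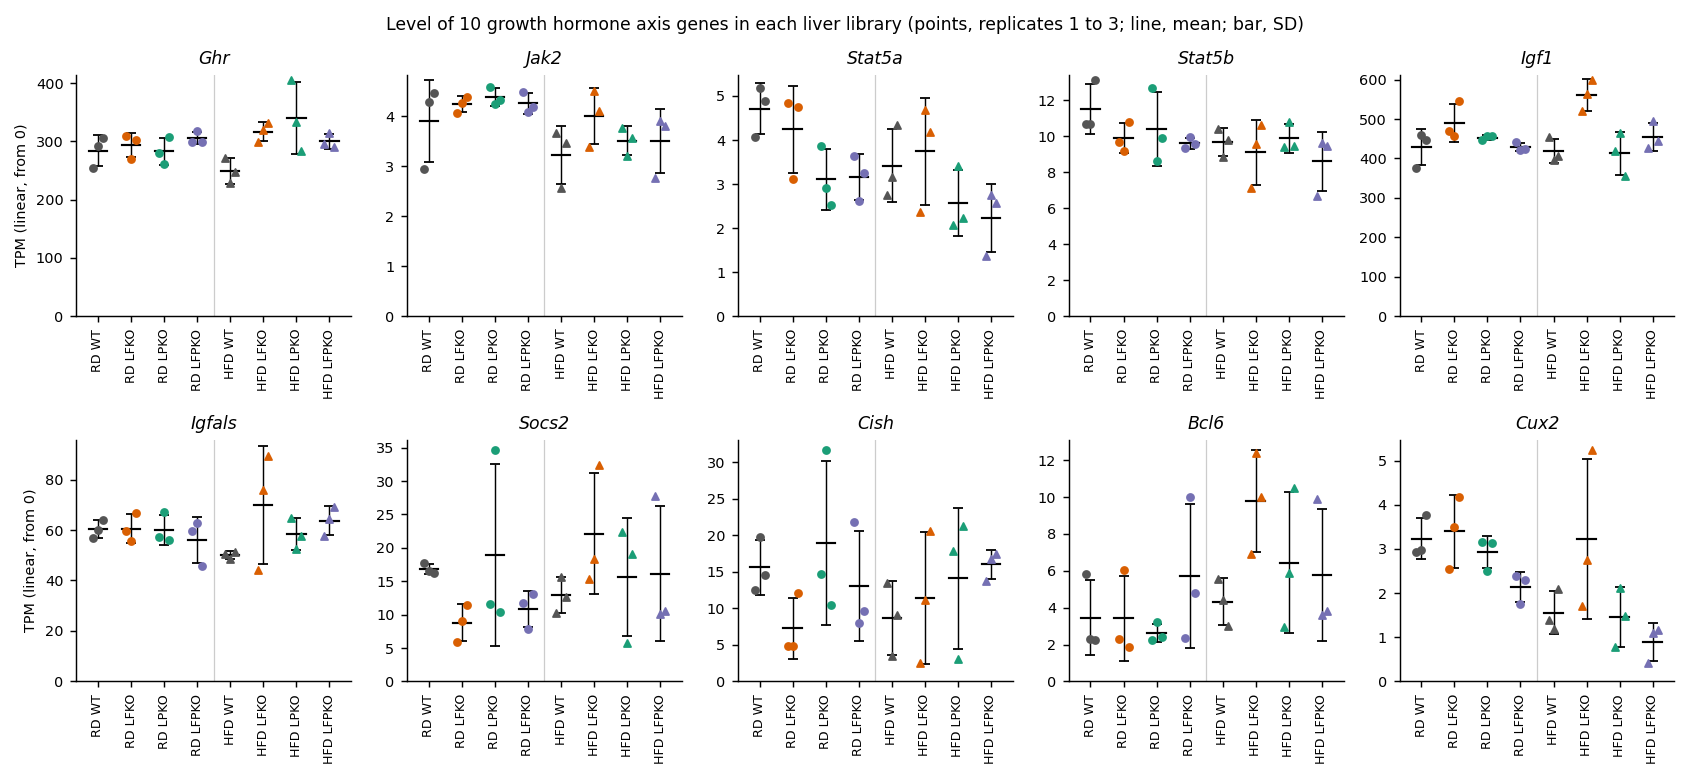
Each panel plots the TPM of 1 gene (linear axis from 0) in the 24 libraries, with circles for RD, triangles for HFD, a line at the group mean and a bar of 1 SD (n = 3). Ghr, Igf1 and Stat5b lie close together in most groups, whereas Socs2, Cish and Bcl6 scatter widely among replicates, with Cish reaching 31.6 TPM in RD LPKO replicate 2.

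Ghr (chromosome 15, 3317760 to 3583492, minus strand, GENCODE M21, GRCm38) encodes the growth hormone receptor. On RD its level was 254, 293 and 306 TPM in WT livers, 309.5, 270.3 and 302 TPM in LFKO, 281, 261 and 308 TPM in LPKO and 299.6, 318 and 299 TPM in LFPKO livers. The 4 RD groups overlapped, with differences from WT (log2FC, the difference of mean log2(TPM + 1), ± SE) of 0.05 ± 0.11 for LFKO, -0.00 ± 0.11 for LPKO and 0.11 ± 0.11 for LFPKO. HFD levels were 272, 228 and 248 TPM in WT livers, 299.7, 319 and 331 TPM in LFKO, 406, 333 and 283 TPM in LPKO and 295, 315 and 291 TPM in LFPKO livers. All 9 HFD knockout libraries lay above the 3 HFD WT libraries. Ghr rose in LFKO against WT (log2FC 0.35 ± 0.11, limma adjusted p = 0.0479) and in LPKO against WT (log2FC 0.44 ± 0.11, limma adjusted p = 0.0293), while LFPKO did not pass the test (log2FC 0.27 ± 0.11, limma adjusted p = 0.27). After scaling, neither difference passed (log2FC 0.09, limma adjusted p = 0.653 for LFKO and log2FC 0.30, limma adjusted p = 0.0685 for LPKO). The LFKO call held in 6 of 24 fits that each left out 1 library, the highest adjusted p coming without HFD WT replicate 2, at 0.29 (limma adjusted p = 0.23). The LPKO call was lost in 4 of 24, at 0.30 (limma adjusted p = 0.185) without HFD LPKO replicate 1, the library with the most Ghr. It was also lost without HFD LPKO replicate 2 at 0.45 (limma adjusted p = 0.0788), HFD WT replicate 2 at 0.38 (limma adjusted p = 0.164) and HFD WT replicate 3 at 0.44 (limma adjusted p = 0.0674).

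On HFD the difference that the PPARα label made to Ghr differed between livers with and without FoxO1. LPKO minus WT was 0.44 ± 0.11, and LFPKO minus LFKO was -0.08 ± 0.11, and the second less the first was -0.52 ± 0.16 (limma adjusted p = 0.045). The same quantity was 0.06 ± 0.16 on RD (limma adjusted p = 0.975). This departure from additivity was called in 11.2% of all tested genes on HFD, with a median of -0.24, and Ghr was the single member of 10 that passed. It lost the call after scaling (log2FC -0.22, limma adjusted p = 0.383) and with a replicate block (limma adjusted p = 0.0586), and it held in 7 of 24 fits that left out 1 library.

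Jak2 (chromosome 19, 29251828 to 29313080, plus strand), which encodes the receptor-associated kinase, ranged from 2.57 to 4.59 TPM. Its group means lay between 3.23 ± 0.579 TPM in HFD WT and 4.38 ± 0.181 TPM in RD LPKO livers (SD, n = 3). No knockout comparison passed the test, the log2FC nearest to it being 0.24 ± 0.13 for LFKO on HFD (limma adjusted p = 0.219). HFD libraries did not overlap RD libraries in LPKO (log2FC -0.26 ± 0.13, limma adjusted p = 0.172) or LFPKO livers (log2FC -0.23 ± 0.13, limma adjusted p = 0.205), both lower and neither called.

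Stat5a (chromosome 11, 100859351 to 100885169, plus strand) and Stat5b (chromosome 11, 100780731 to 100850724, minus strand) encode the STAT5 proteins and are neighbours in the genome. Of the 31-base words in their transcripts, 11.5% of those of Stat5a and 15.1% of those of Stat5b occur in the other gene, so the division of reads between them carries some uncertainty. Stat5b was the more abundant in every library, with a Stat5b to Stat5a ratio of TPM from 1.99 to 4.94 and a mean of 3.1 ± 0.806 (SD, n = 24). Stat5a on RD was 4.06, 5.19 and 4.88 TPM in WT livers, 4.85, 3.11 and 4.75 TPM in LFKO, 3.87, 2.92 and 2.53 TPM in LPKO and 3.64, 2.61 and 3.25 TPM in LFPKO livers. The LPKO and LFPKO libraries on RD lay below all WT libraries, yet neither difference passed the test (log2FC -0.48 ± 0.22, limma adjusted p = 0.233 for LPKO and log2FC -0.46 ± 0.22, limma adjusted p = 0.228 for LFPKO). On HFD the Stat5a means were 3.42 ± 0.834 TPM in WT, 3.74 ± 1.22 TPM in LFKO, 2.57 ± 0.74 TPM in LPKO and 2.23 ± 0.764 TPM in LFPKO livers (SD, n = 3), with all groups overlapping WT. Stat5b means lay between 8.59 ± 1.64 TPM in HFD LFPKO and 11.5 ± 1.38 TPM in RD WT livers. The 6 knockout comparisons of Stat5b gave log2FC from -0.23 ± 0.15 to 0.03 ± 0.15, and none passed.

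Igf1 (chromosome 10, 87858265 to 87937042, plus strand), the main secreted product of the axis, was at 376, 460.2 and 448 TPM in WT livers, 469, 456 and 545 TPM in LFKO, 446, 457 and 457 TPM in LPKO and 441, 421 and 425 TPM in LFPKO livers on RD. These groups overlapped WT, and no RD comparison with WT passed the test, with log2FC of 0.20 ± 0.11 for LFKO, 0.09 ± 0.11 for LPKO and 0.01 ± 0.11 for LFPKO. On HFD it was 454, 397 and 407 TPM in WT livers, 521, 563 and 600.1 TPM in LFKO, 419.7, 464 and 355 TPM in LPKO and 426, 494 and 445 TPM in LFPKO livers. The 3 HFD LFKO libraries were above every other HFD library. Igf1 rose in LFKO against WT on HFD, from 419 ± 30.5 TPM to 561 ± 39.6 TPM (SD, n = 3; log2FC 0.42 ± 0.11, limma adjusted p = 0.0177). LFPKO livers were lower than LFKO livers without overlap, short of the threshold (log2FC -0.30 ± 0.11, limma adjusted p = 0.0776). The LFKO call held in 21 of 24 fits that left out 1 library and was lost without HFD WT replicate 2 at 0.38 (limma adjusted p = 0.104), without HFD LFKO replicate 2 at 0.42 (limma adjusted p = 0.0728) and without HFD LFKO replicate 3 at 0.37 (limma adjusted p = 0.0978). After scaling the difference was log2FC 0.17, limma adjusted p = 0.286.

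Igfals (chromosome 17, 24865997 to 24882010, plus strand) encodes the acid-labile subunit that holds IGF1 in serum. It varied little on RD, with means from 56 ± 9.12 TPM in LFPKO to 60.6 ± 5.78 TPM in LFKO livers (SD, n = 3). The HFD levels of Igfals were 50.7, 48.5 and 51.4 TPM in WT livers, 44, 76 and 89.5 TPM in LFKO, 64.9, 52.4 and 57.5 TPM in LPKO and 57.5, 64.5 and 69 TPM in LFPKO livers. Every LPKO and LFPKO library exceeded every WT library, but HFD LFKO replicate 1 lay below WT and replicates 2 and 3 far above it. None of the HFD comparisons with WT passed (log2FC 0.41 ± 0.18, limma adjusted p = 0.124 for LFKO, log2FC 0.21 ± 0.18, limma adjusted p = 0.57 for LPKO and log2FC 0.33 ± 0.18, limma adjusted p = 0.426 for LFPKO). Without HFD LFKO replicate 1 the LFKO difference was 0.71 (limma adjusted p = 0.00209), in a fit that called 3500 of all genes. It was not called in the other 23 of 24 fits that left out 1 library, and was 0.20 (limma adjusted p = 0.556) without HFD LFKO replicate 3. After scaling it was 0.16 (limma adjusted p = 0.576). The ratio of Igf1 to Igfals TPM was 6.18 to 11.8 over the 24 libraries, with a mean of 7.74 ± 1.21 (SD, n = 24).

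Socs2 (chromosome 10, 95385362 to 95417180, minus strand) encodes a feedback inhibitor of the growth hormone receptor, and 4.99% of its 31-base words also occur in the predicted gene Gm9847. On RD it was 17.7, 16.6 and 16.3 TPM in WT livers, 5.92, 9.07 and 11.4 TPM in LFKO, 11.6, 34.7 and 10.4 TPM in LPKO and 11.8, 7.91 and 13.1 TPM in LFPKO livers. WT libraries were tightly grouped, all 3 LFKO and all 3 LFPKO libraries lay below them, and LPKO replicate 2 held the highest value of the study. The LFKO difference was -0.91 ± 0.46 (limma adjusted p = 0.349) and the LFPKO difference -0.61 ± 0.46 (limma adjusted p = 0.48), so neither passed. After HFD the Socs2 levels were 10.3, 15.7 and 12.7 TPM in WT livers, 15.4, 18.4 and 32.4 TPM in LFKO, 22.4, 5.75 and 19.1 TPM in LPKO and 27.8, 10.1 and 10.5 TPM in LFPKO livers. LFKO libraries overlapped WT there (log2FC 0.68 ± 0.46, limma adjusted p = 0.311), and the change in the LFKO difference with diet was 1.59 ± 0.64 (limma adjusted p = 0.345; 95% confidence interval 0.24 to 2.93). Within LFKO livers the HFD libraries were all above the RD libraries, and this too missed the threshold (log2FC 1.21 ± 0.46, limma adjusted p = 0.101).

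Cish (chromosome 9, 107296026 to 107302784, plus strand), the gene with STAT5 palindromes at its start site, encodes the inhibitor CIS. On RD it was 12.5, 19.8 and 14.5 TPM in WT livers, 4.79, 4.83 and 12.1 TPM in LFKO, 14.7, 31.6 and 10.4 TPM in LPKO and 21.8, 7.94 and 9.62 TPM in LFPKO livers. All LFKO libraries lay below all WT libraries (log2FC -1.10 ± 0.63, limma adjusted p = 0.43), but the 95% confidence interval ran from -2.42 to 0.22. On HFD it was 13.5, 3.43 and 9.09 TPM in WT livers, 2.58, 11.2 and 20.6 TPM in LFKO, 17.9, 3.12 and 21.2 TPM in LPKO and 13.8, 16.7 and 17.5 TPM in LFPKO livers. WT, LFKO and LPKO groups each spanned low and high libraries, and LFPKO livers were above WT without overlap and without a call (log2FC 0.97 ± 0.63, limma adjusted p = 0.534). In RD LFKO livers, where Socs2 and Cish both lay under WT, summed TPM of 9 immediate early genes was 90.3 to 137 against 40.7 to 58 in WT livers, with 1 of 6 tested called higher, where 1.67% of all genes were called. In RD LPKO livers, where the log2FC against WT was -0.05 ± 0.46 for Socs2 and 0.14 ± 0.63 for Cish, the sum was 66.4 to 123 with 2 of 6 called higher, and in RD LFPKO livers it was 41.9 to 78.8 with 2 of 6 called higher. Of all genes, 5.85% were called in RD LPKO and 7.45% in RD LFPKO livers against WT. For HFD against RD in LFKO livers, where Socs2 and Bcl6 libraries were all higher, the sum on HFD was 28.6 to 50.6. There 4 of 6 immediate early genes were called lower and 0 higher, beside 9.45% of all genes. In WT, LPKO and LFPKO livers the diet comparison called 0, 2 and 2 of 6 lower, beside 30.8%, 18.1% and 26.3%. The part of the immediate early genes in these differences was not tested.

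Bcl6 (chromosome 16, 23965052 to 23988852, minus strand), the repressor of female-biased genes that carries 3 STAT5 palindromes in the window printed above, was low and scattered. On RD it was 5.82, 2.29 and 2.27 TPM in WT livers, 2.32, 6.06 and 1.88 TPM in LFKO, 2.27, 3.21 and 2.41 TPM in LPKO and 2.33, 9.99 and 4.82 TPM in LFPKO livers. Each of the WT, LFKO and LFPKO groups held a library far above its lowest, and all groups overlapped. HFD libraries held Bcl6 at 5.54, 4.4 and 3.01 TPM in WT livers, 6.93, 12.4 and 10 TPM in LFKO, 2.94, 5.89 and 10.5 TPM in LPKO and 9.92, 3.6 and 3.81 TPM in LFPKO livers. The 3 HFD LFKO libraries were above all HFD WT and all RD LFKO libraries. Neither difference passed, with a log2FC against WT of 1.02 ± 0.45 (limma adjusted p = 0.13) and against RD LFKO of 1.37 ± 0.45 (limma adjusted p = 0.0596). With genes below a mean of 5 TPM left out of testing, the diet difference in LFKO passed (limma adjusted p = 0.0483).

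Cux2 (chromosome 5, 121856366 to 122050102, minus strand), a repressor that is higher in female liver, gave the call with the smallest adjusted p of the set. On RD it was 2.94, 2.98 and 3.77 TPM in WT livers, 2.54, 3.49 and 4.18 TPM in LFKO, 3.16, 2.51 and 3.13 TPM in LPKO and 2.38, 1.75 and 2.3 TPM in LFPKO livers. LFPKO libraries were below those of the other genotypes, with a log2FC against WT of -0.43 ± 0.25 that did not pass (limma adjusted p = 0.346). On HFD it was 1.39, 1.19 and 2.1 TPM in WT livers, 1.7, 2.74 and 5.23 TPM in LFKO, 0.772, 2.12 and 1.49 TPM in LPKO and 0.406, 1.1 and 1.17 TPM in LFPKO livers. The 3 HFD LFPKO libraries were below all WT and LFKO libraries on that diet. Cux2 fell in LFPKO against LFKO livers on HFD, from 3.22 ± 1.81 TPM to 0.893 ± 0.423 TPM (SD, n = 3; log2FC -1.10 ± 0.25, limma adjusted p = 0.00715). Against WT on HFD its log2FC was 0.65 ± 0.25 in LFKO and -0.45 ± 0.25 in LFPKO livers, and neither passed (limma adjusted p = 0.0875 and limma adjusted p = 0.454). The LFPKO against LFKO call remained after scaling (log2FC -1.02, limma adjusted p = 0.00507). It was lost without HFD LFKO replicate 3 at -0.77 (limma adjusted p = 0.067), without HFD LFPKO replicate 1 at -0.90 (limma adjusted p = 0.0563), and when the 2 groups were fitted alone (limma adjusted p = 0.132).

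Counted by comparison, few members passed. On RD, 0 of the 10 were called for LFKO, LPKO or LFPKO against WT by limma, where 1.67%, 5.85% and 7.45% of all tested genes were called in either direction. At an unadjusted p under 0.05 the members numbered 0, 1 and 1, beside 15.5%, 18.8% and 21.8% of all genes. On HFD, 2 of 10 were called for LFKO against WT, Igf1 and Ghr, beside 13.5% of all genes. That share moved with single libraries: the 1420 genes called became 201 without HFD WT replicate 2 and 3500 without HFD LFKO replicate 1. Ghr was the 1 of 10 for LPKO, beside 4.73%, and 0 of 10 were called for LFPKO, beside 3.09%. At an unadjusted p under 0.05 the HFD counts were 5, 1 and 2, beside 31.8%, 19.8% and 14.1%. With 10 genes, 1 or 2 calls lie near these backgrounds. After scaling, 0 members were called in any of the 6 knockout comparisons with WT, beside 3.74%, 9.46% and 12.9% of all genes on RD and 4.10%, 6.83% and 5.45% on HFD. Groups that did not overlap WT were counted for 2, 1 and 4 members in LFKO, LPKO and LFPKO on RD, beside 26.8%, 29.3% and 29.4% of all genes. On HFD the counts were 3, 2 and 4, beside 26.7%, 20.7% and 16.0%.

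**Figure D2:**
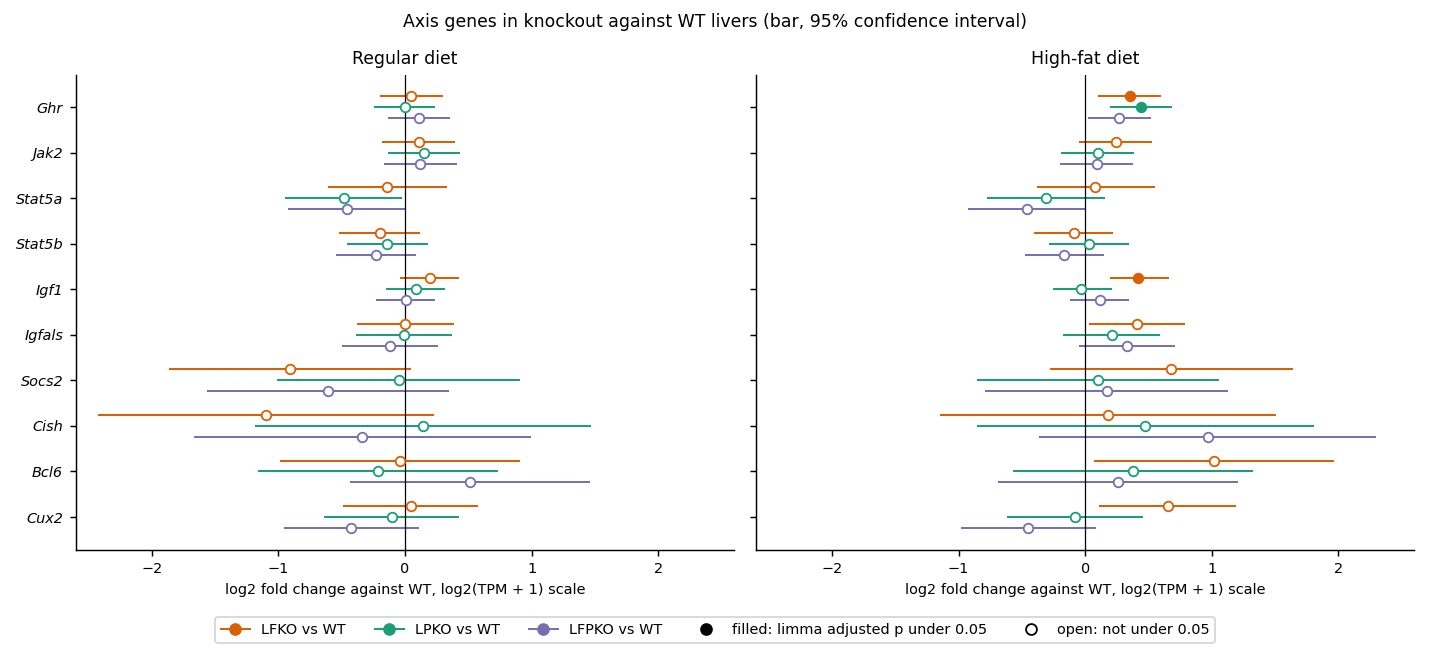
Log2 fold changes of the 10 genes against WT on the log2(TPM + 1) scale (x axis), with 95% confidence intervals, for RD (left) and HFD (right); filled points passed a limma adjusted p of 0.05. On RD every point is open, and on HFD Igf1 (0.42) and Ghr (0.35) are filled for LFKO and Ghr (0.44) for LPKO. Intervals of Socs2, Cish, Bcl6 and Cux2 span more than 1 log2 unit.

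Comparisons among the knockouts called 1 member. For LFPKO against LFKO on HFD it was Cux2, 1 of 10 beside 10.6% of all genes, and on RD 0 of 10 were called beside 5.08%, with 0 at an unadjusted p under 0.05 beside 16.8%. For LFPKO against LPKO, 0 of 10 were called on RD beside 0.123% and 0 of 10 on HFD beside 0.351%, and 0 of 10 had an unadjusted p under 0.05 in either, beside 5.20% and 10.5%. Groups did not overlap for 2 members in LFPKO against LFKO on RD and 2 on HFD, and for 2 in LFPKO against LPKO on RD and 0 on HFD, beside 30.0%, 20.9%, 16.6% and 9.24% of all genes. Igf1 and Cux2 libraries of RD LFPKO livers lay below those of RD LFKO and of RD LPKO livers without overlap, with log2FC for Igf1 of -0.19 ± 0.11 and -0.08 ± 0.11 and for Cux2 of -0.47 ± 0.25 and -0.32 ± 0.25. The diet dependence of a knockout difference was called for 0 of 10 members in LFKO, LPKO and LFPKO, beside 0.00948%, 0.171% and 0.0284% of all genes. At an unadjusted p under 0.05 it numbered 1, 1 and 0 members, beside 12.2%, 8.08% and 7.54%, namely Socs2 for LFKO and Ghr for LPKO (log2FC 0.44 ± 0.16, limma adjusted p = 0.397). Departure from additivity on RD called 0 of 10, beside 0.256% of all genes, with 0 at an unadjusted p under 0.05 beside 7.01%.

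On the high-fat diet Cux2 fell in WT livers, from 3.23 ± 0.466 TPM to 1.56 ± 0.477 TPM (SD, n = 3; log2FC -0.73 ± 0.25, limma adjusted p = 0.0352), and in LFPKO livers (log2FC -0.75 ± 0.25, limma adjusted p = 0.0333). LPKO livers differed in the same direction without passing (log2FC -0.71 ± 0.25, limma adjusted p = 0.056), and LFKO livers showed -0.13 ± 0.25 (limma adjusted p = 0.794). HFD and RD libraries did not overlap for Cux2 in WT, LPKO and LFPKO livers. With TPM as deposited this was the 1 of 10 members called in WT and in LFPKO, beside 30.8% and 26.3% of all genes, and 0 of 10 were called in LFKO and LPKO, beside 9.45% and 18.1%, with 2 members each at an unadjusted p under 0.05, beside 24.7% and 35.5%. Libraries of the 2 diets did not overlap for 4, 2, 2 and 2 members in WT, LFKO, LPKO and LFPKO livers, beside 48.5%, 29.4%, 42.3% and 41.0% of all genes. After scaling Cux2 no longer passed in WT (log2FC -0.49, limma adjusted p = 0.199) or LFPKO livers (log2FC -0.62, limma adjusted p = 0.0738). The WT call was also lost without RD WT replicate 2 or 3 or HFD WT replicate 1 or 2, with log2FC from -0.78 to -0.63 (limma adjusted p from 0.0686 to 0.151). In HFD against RD WT livers, 6 of 6 tested stellate cell markers were called lower, with a summed TPM of 46.5 to 68.2 against 110.4 to 160.0 on RD and no marker at 0, and 4 of 8 hepatocyte markers and 1 of 11 Kupffer cell markers were lower. In LFPKO livers 0 of 6 stellate and 5 of 8 hepatocyte markers were called lower. These marker counts are from TPM as deposited. After scaling the hepatocyte marker Hnf4a lost its call in WT (log2FC -0.06, limma adjusted p = 0.835) and LFPKO livers (log2FC -0.16, limma adjusted p = 0.459). The part of the marker shifts in the Cux2 differences was not tested. The LFPKO call was lost without RD LFPKO replicate 1 or 3 or HFD LFPKO replicate 1, with log2FC from -0.71 to -0.55 (limma adjusted p from 0.0827 to 0.191).

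Scaling moved Igf1 the other way. As deposited, Igf1 differed little between diets, with log2FC of -0.03 ± 0.11 in WT, 0.20 ± 0.11 in LFKO, -0.14 ± 0.11 in LPKO and 0.08 ± 0.11 in LFPKO livers, none of which passed. After scaling it was higher on HFD in WT (log2FC 0.34, limma adjusted p = 0.0155), LFKO (log2FC 0.33, limma adjusted p = 0.0151) and LFPKO livers (log2FC 0.34, limma adjusted p = 0.00982), but not called in LPKO (log2FC 0.11, limma adjusted p = 0.479). Ghr was then called higher in LPKO (log2FC 0.50, limma adjusted p = 0.00398) and Igfals in LFPKO livers (log2FC 0.45, limma adjusted p = 0.034). The scaled counts were thus 1, 1, 1 and 2 of 10 in WT, LFKO, LPKO and LFPKO, all higher, beside 4.45%, 3.96%, 2.77% and 4.78% of all genes called higher. The 3 Igf1 calls and the Ghr and Igfals calls were also made when Mup and mitochondrial-genome transcripts were left out before rescaling. The Mup share moved with these diet comparisons, at 5.06 to 6.87% of listed TPM in RD LFKO and 6.5 to 17.7% in HFD LFKO, and at 12.6 to 13.9% in RD LFPKO and 20.2 to 28.5% in HFD LFPKO libraries.

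**Figure D3:**
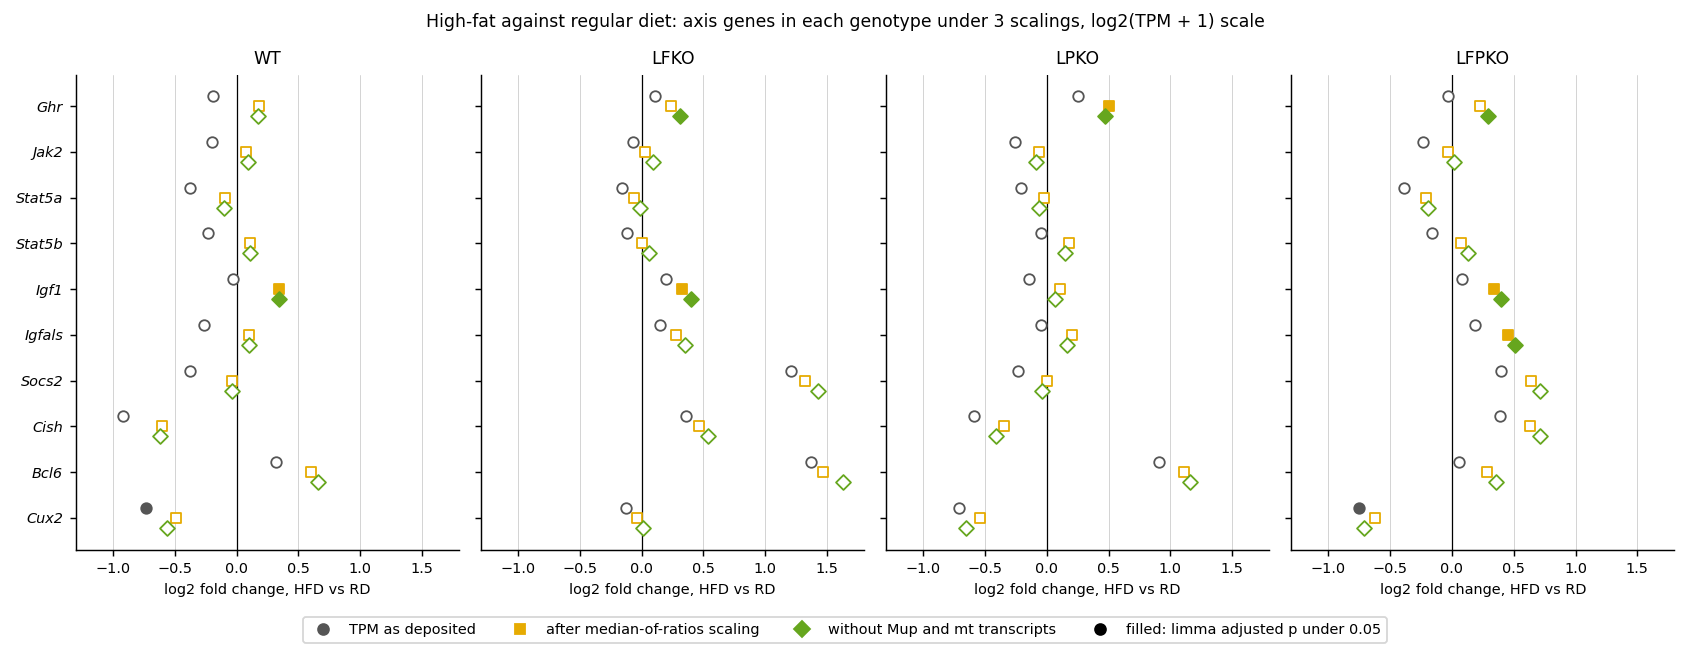
Log2 fold changes of the 10 genes for HFD against RD (x axis, log2(TPM + 1) scale) in each genotype, from TPM as deposited (circles), after median-of-ratios scaling (squares) and without Mup and mitochondrial-genome (mt) transcripts (diamonds); filled symbols passed a limma adjusted p of 0.05. Igf1 moves from -0.03 to 0.34 in WT livers with scaling and becomes filled, and Cux2 moves from -0.73 to -0.49 and becomes open.

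The HFD differences from WT stood beside shifts of other liver genes. In LFKO against WT livers on HFD, 3 of 6 tested stellate cell markers were called higher and 0 lower, where 13.5% of all genes were called, with a summed TPM over 7 markers of 94.1 to 105 against 46.5 to 68.2 in WT and no marker at 0 in any library. In the same comparison 1 of 8 hepatocyte markers was called higher, and 0 of 11 Kupffer cell and 0 of 8 sinusoidal endothelial markers were called. In LPKO against WT on HFD, 0 of 6 stellate cell and 0 of 8 hepatocyte markers were called, beside 4.73% of all genes. Summed stellate TPM was 73.3 to 109 there, also above WT. Of the 6, 5 had an unadjusted limma p under 0.05, beside 19.8% of all genes. The part of these in the Igf1 and Ghr differences was not tested, and in bulk tissue fewer cells of a type cannot be told apart from less RNA per cell.

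Replicates of a group differed enough for co-variation to be examined in 6 pairs of members, using each library's deviation from its group mean on the log2(TPM + 1) scale. Socs2 and Cish, both feedback inhibitors, gave r = 0.596 (permutation p = 0.0222, adjusted over 6 pairs 0.0901) and rho = 0.576 (permutation p = 0.0215, adjusted 0.0644), with both deviations on the same side in 13 of 24 libraries. RD LPKO replicate 2 was the highest library of the study for both genes. Without the 2 libraries farthest from the median of Socs2, r was 0.43. Igf1 and Ghr gave r = 0.637 (permutation p = 0.03, adjusted 0.0901) and rho = 0.636 (permutation p = 0.0122, adjusted 0.0644), with the same side in 19 of 24 libraries, and r was 0.45 without the farthest 2. After scaling r was 0.454 (adjusted permutation p = 0.366), and Socs2 with Cish gave 0.548 (adjusted permutation p = 0.237). Igf1 and Igfals gave r = 0.371 (permutation p = 0.0754, adjusted 0.151; rho = 0.369, permutation p = 0.116, adjusted 0.231; r = 0.41 without 2 libraries) and changed sign after scaling, to -0.314. Bcl6 showed r = 0.152 with Socs2, -0.113 with Cish and -0.13 with Cux2 (permutation p from 0.572 to 0.666, adjusted 0.666; rho 0.177, -0.138 and -0.276, adjusted permutation p from 0.435 to 0.585; without 2 libraries r = 0.104, -0.039 and 0.0438). None of these 6 relations passed 0.05 after adjustment, but with a replicate block Igf1 with Ghr did (r = 0.717, adjusted permutation p = 0.0373). That permutation moved values across replicate numbers and so did not keep the block, and its p may be too small. The permutations were two-sided and made within groups.

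**Figure D4:**
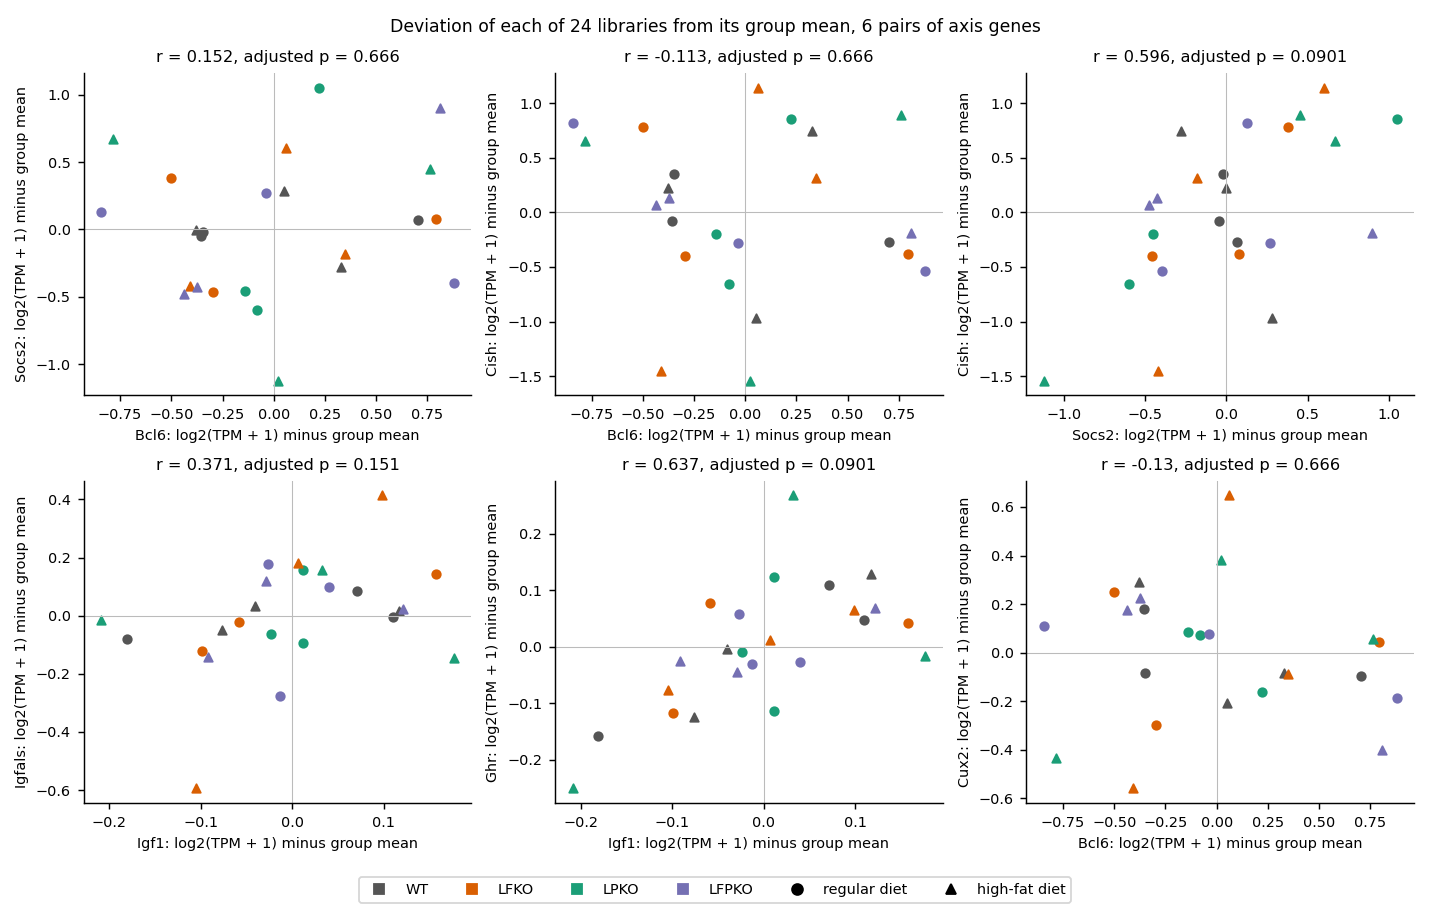
Each point is 1 of 24 libraries, placed by its deviation from the group mean in log2(TPM + 1) for the genes named on the axes; colours give the genotype, circles RD and triangles HFD. The clouds tilt upward for Socs2 with Cish (r = 0.596) and Igf1 with Ghr (r = 0.637), and the 3 panels with Bcl6 on the x axis show r between -0.13 and 0.152.

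The members' differences, few of them called and those of Socs2, Cish and Bcl6 imprecise, can be set beside the liver genes that growth hormone keeps different between the sexes. In LFKO against WT livers on RD, 11 of 21 male-biased genes fell and 1 rose, with a median log2FC of -1.16 beside 0.03 for all genes, while 7 of 12 tested female-biased genes rose and 0 fell, with a median of 1.99. Mup21, a major urinary protein gene, went from 779 ± 239 TPM to 52.2 ± 21 TPM (log2FC -3.90 ± 0.44, limma adjusted p = 3.20e-05), and Cyp2b9, a female-biased cytochrome P450 gene, from 1.9 ± 0.825 TPM to 83.9 ± 35.8 TPM (log2FC 4.82 ± 0.68, limma adjusted p = 0.000482). On HFD the LFKO counts were 11 male-biased genes lower and 0 higher, and 8 female-biased genes higher and 0 lower. Of all tested genes, 1.67% were called on RD and 13.5% on HFD, and after scaling 3.74% and 4.10%. In the same libraries the median over the 10 axis genes was -0.02 on RD and 0.38 on HFD. After scaling, which left 11 female-biased genes to test, the LFKO counts were 11 lower and 1 higher on RD and 11 lower on HFD for male-biased genes, and 6 higher on RD and 4 on HFD for female-biased genes. LPKO livers had 2 male-biased genes called higher and 2 lower on RD, and 0 higher and 3 lower on HFD. LFPKO livers had 1 higher and 4 lower on RD and 0 of 21 called on HFD. Of all tested genes, 5.85% on RD and 4.73% on HFD were called for LPKO, and 7.45% and 3.09% for LFPKO. Female-biased genes also rose outside LFKO livers. In LPKO on RD, Cyp2a4 rose (log2FC 6.50 ± 1.17, limma adjusted p = 0.0015) and Abcd2 fell (log2FC -1.31 ± 0.38, limma adjusted p = 0.0445), and in LFPKO on RD Cyp2a4 (log2FC 7.42 ± 1.17, limma adjusted p = 0.000355), Cyp17a1 and Ntrk2 rose. On HFD, Cyp17a1 and Fmo2 rose in LPKO and Cyp17a1 in LFPKO livers, with 0 lower in either. Against LFKO livers, LFPKO livers had 9 of 21 male-biased genes higher and 0 lower on either diet. Of female-biased genes, 1 was higher and 6 lower on RD, and 0 higher and 6 lower on HFD. In that comparison 5.08% of all tested genes were called on RD and 10.6% on HFD. These lists were drawn up with earlier results of these data known. Mup and Cyp2 genes belong to families of similar sequence, so the division of reads among them is uncertain.

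**Figure D5:**
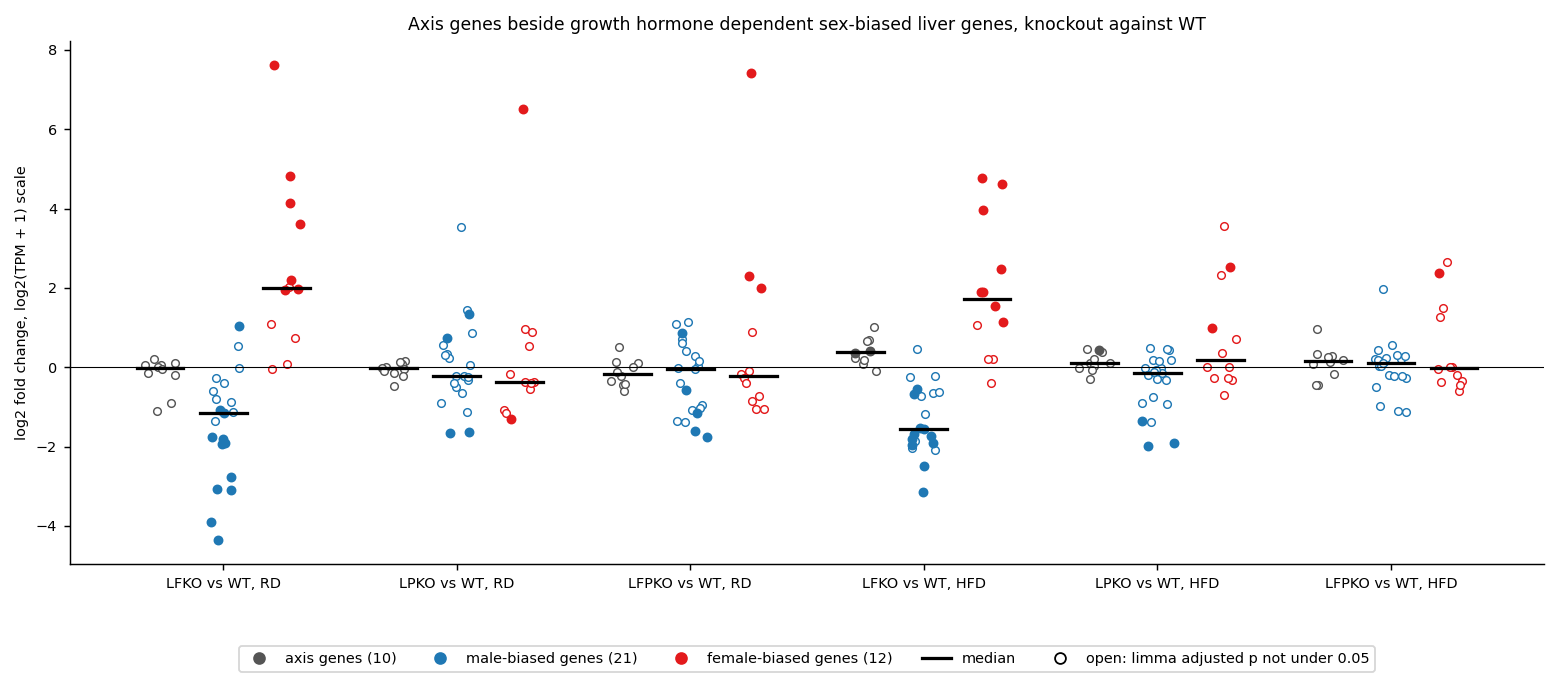
Log2 fold changes (y axis, log2(TPM + 1) scale) of the 10 axis genes, 21 male-biased and 12 female-biased genes in the 6 comparisons with WT; filled points passed a limma adjusted p of 0.05 and bars mark medians. In LFKO livers the male-biased genes lie mostly below 0 (medians -1.16 on RD and -1.57 on HFD) and the female-biased genes above it (1.99 and 1.71), and the axis genes lie between -1.10 and 1.02.

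Other genes of growth hormone and IGF signalling were given by list. Among 17 tested genes for receptor signalling and feedback, LFKO livers had 0 called on RD and 1 on HFD, where 13.5% of all genes were called. That gene was Prlr, the prolactin receptor, which also activates STAT5, from 26.8 ± 6.47 TPM to 90 ± 32.2 TPM (log2FC 1.67 ± 0.29, limma adjusted p = 0.00227). Prlr fell in LFPKO against LFKO livers on HFD (log2FC -1.88 ± 0.29, limma adjusted p = 0.000175), in LPKO against WT on RD (log2FC -1.14 ± 0.29, limma adjusted p = 0.0216) and in WT livers on HFD against RD (log2FC -1.50 ± 0.29, limma adjusted p = 0.00177). Ptpn2, a phosphatase of JAK and STAT proteins, rose on RD in LPKO (log2FC 0.47 ± 0.13, limma adjusted p = 0.0298) and LFPKO livers (log2FC 0.71 ± 0.13, limma adjusted p = 0.00111). Of 9 tested IGF binding protein and receptor genes, 1 rose and 2 fell in LFKO on HFD, beside the same 13.5%. Igfbp3, whose protein carries IGF1 together with ALS, rose (log2FC 0.94 ± 0.18, limma adjusted p = 0.00427), and Igfbp1 (log2FC -1.98 ± 0.62, limma adjusted p = 0.0391) and Igfbp2 (log2FC -1.75 ± 0.20, limma adjusted p = 4.56e-05) fell. Igfbp2 also fell on HFD in LPKO (log2FC -1.39 ± 0.20, limma adjusted p = 0.000241) and LFPKO livers (log2FC -2.01 ± 0.20, limma adjusted p = 3.04e-06), and on RD in LFPKO livers (log2FC -1.24 ± 0.20, limma adjusted p = 0.000515). Of 12 tested other regulators of sex-biased genes, 3 rose in HFD LFKO livers, namely the oestrogen receptor gene Esr1 (1.25 ± 0.23), Tox (1.01 ± 0.23) and the co-regulator gene Trim24, and 0 were called in RD LFKO livers. After scaling, beside 4.10% of all genes, the HFD LFKO counts were 1 higher and 0 lower for receptor signalling, 1 higher and 1 lower for IGF binding, and 2 higher and 0 lower for the regulators. Igfbp1 (log2FC -2.22, limma adjusted p = 0.059) and Trim24 (log2FC 0.78, limma adjusted p = 0.0541) were the 2 that lost their calls.

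The genes whose level followed a called member most closely over the 24 libraries were found by Pearson's r on log2(TPM + 1), as a description, since the libraries share group differences and composition. Ghr was nearest to Setdb2 (r = 0.814), Sepsecs (0.804) and Dnajb6 (0.788). Igf1 was nearest to Ecd (0.831), Pde7b (0.796) and Tomm70a (0.762). Cux2 was nearest to Eif3l (0.913), Iars2 (0.912) and Dag1 (0.897). With group means removed, r for the nearest gene was 0.587 for Ghr, 0.684 for Igf1 and 0.865 for Cux2.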

How the data were processed

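RNA from mouse liver was made into 24 libraries with the TruSeq Stranded mRNA kit, per the labels' protocols. The authors quantified it with kallisto and deposited 1 table of TPM per gene; mm10 and GRCm38 are the builds given, per the submitters' processing notes, and the version of kallisto was not given in the sources used here. A row without a gene name held 0.0104 to 0.025% of the listed TPM and was left out.

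Groups were taken from the labels. Values were tested as log2(TPM + 1) with limma 3.58.1 in R 4.3.3, in a fit across all genes with 8 group means, 16 residual degrees of freedom and a mean-variance trend, over 10551 genes with a mean of at least 1 TPM. Adjusted p-values are Benjamini-Hochberg values within each of 19 comparisons, with a threshold of 0.05, and errors of fold changes are SE. Departure from additivity is LFPKO minus LFKO less LPKO minus WT. Relations used 100000 permutations.

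The members and gene lists were chosen with earlier results of these data known. Of each list, the text could name the 4 genes with the smallest adjusted p in a comparison and any called against the list's direction, and for each called member the 3 genes most like it. Results were recomputed with median-of-ratios scaling, without Mup and mitochondrial-genome transcripts, from the compared groups alone, with a replicate block, with 0.1 in place of 1 added to TPM, without the filter or with a minimum mean of 5 TPM, and without each library in turn. TPM hold no depth, so no counting interval was computed.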

Additional observations from a re-analysis of the deposited data

Results flagged for a closer look

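Several effects differed between genotypes or diets by limma's interaction test, at an adjusted p under 0.05; the values are log2 differences of differences. Among the axis genes this was Ghr, with a departure from additivity of -0.52 on HFD, where 11.2% of all tested genes were called. It lost its call after scaling (-0.22, limma adjusted p = 0.383), without Mup and mitochondrial-genome transcripts (-0.11, limma adjusted p = 0.68), with the replicate block (limma adjusted p = 0.0586) and in 17 of 24 fits that left out 1 library.

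For genes of the pathway lists on HFD, the departure from additivity was -1.63 for Prlr, -1.20 for Igfbp3, 1.13 for Igfbp2, -2.21 for Esr1, -1.29 for Trim24 and -1.15 for Tox. After scaling, Trim24 (-1.04, limma adjusted p = 0.0589) and Tox (-0.97, limma adjusted p = 0.079) no longer passed. It was 2.90 for Mup12, 3.36 for Mup1, 2.55 for Mup11 and 1.85 for Elovl3, all male-biased genes. It was -2.88 for Fmo2, -2.92 for Abcd2, -4.66 for Cyp2b9 and -5.80 for Acot3, all female-biased genes.

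On RD it was 3.09 for Mup12, 3.45 for Mup21 and 1.0 for Nox4, and -4.12 for Cyp2c69 and -4.81 for Cyp2c40. For Cyp2c69 the LFKO difference from WT on HFD less that on RD was -3.40.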

How the results depend on the processing

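Counts of axis genes called moved with several settings. LFKO against WT on HFD called 2, and 1 with no filter, 0 with median-of-ratios scaling, 0 without Mup and mitochondrial-genome transcripts and 0 with the compared groups alone. LPKO against WT on HFD went from 1 to 0 under those last 3 settings. Over all genes the calls under them were 431, 429 and 140 for LFKO, from 1420. For LPKO they were 719, 678 and 147, from 499. LFPKO against LFKO on HFD went from 1 to 0 at a mean of at least 5 TPM, where Cux2 was not tested, and with the compared groups alone. All-gene calls in those fits were 991 and 267, from 1117. Departure from additivity on HFD went from 1 to 0 with no filter, with scaling, without Mup and mitochondrial-genome transcripts, and with the compared groups alone. Its all-gene calls were then 844, 626, 616 and 130, from 1179. For HFD against RD, WT went from 1 to 0 with no filter and at 5 TPM. LFKO went from 0 to 1 at 5 TPM, 1 with scaling and 2 without Mup and mitochondrial-genome transcripts. LPKO went from 0 to 1 with scaling, without those transcripts, and with the replicate block. LFPKO went from 1 to 0 with no filter and at 5 TPM, to 2 with scaling and to 3 without those transcripts. In the same order of settings, all-gene diet calls were 2637 and 2633 in WT and 960, 1089 and 1095 in LFKO. They were 681, 753 and 1758 in LPKO and 2406, 2553, 1387 and 1324 in LFPKO. Igf1 for HFD against RD in WT turned from -0.03 to 0.34 with scaling and to 0.34 without Mup and mitochondrial-genome transcripts, and Ghr in LFPKO from -0.03 to 0.29 without them. Apart from the genes not tested at 5 TPM and the scalings' own construction, the cause was not tested.

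Leaving out each library gave 0 to 4 axis genes called for LFKO, 0 to 1 for LPKO against WT on HFD, 0 to 3 for LFPKO against LFKO on HFD and 0 to 3 for departure from additivity on HFD. For HFD against RD the counts were 0 to 2 in WT, and 0 to 1 in LFKO, LPKO and LFPKO. The other 11 comparisons stayed at 0. Over the same fits, all-gene calls were 201 to 3500 for LFKO and 198 to 892 for LPKO against WT on HFD. They were 544 to 2439 for LFPKO against LFKO and 423 to 2612 for departure from additivity on HFD. Diet calls were 921 to 3984 in WT, 335 to 1377 in LFKO and 587 to 2534 in LPKO. In LFPKO they were 1305 to 3248. The relation r was 0.421 to 0.702 for Socs2 with Cish, 0.478 to 0.752 for Igf1 with Ghr and 0.271 to 0.521 for Igf1 with Igfals.

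Deviations from group means gave r from -0.2298 to 0.3869 (median -0.004368) over 84 pairs of libraries that share a replicate number. Over 168 pairs with different numbers r was -0.3776 to 0.2497 (median 0.0007278). Of 24 libraries, 11 correlated best with one of their own number. Since 84 pairs share a number beside 168 that do not, part of such matches would arise without any pairing. A median near 0 cannot exclude a batch shared by some groups, so whether the numbers pair libraries is unknown. With the replicate block, Ghr lost its calls for LFKO against WT (limma adjusted p = 0.0626) and for departure from additivity (limma adjusted p = 0.0586) on HFD. Cux2 gained calls for LFKO against WT on HFD (0.65, limma adjusted p = 0.0485), HFD against RD in LPKO (-0.71, limma adjusted p = 0.0279) and departure from additivity on HFD (-1.02, limma adjusted p = 0.0356). Igf1 with Ghr gave 0.717 (adjusted permutation p = 0.0373, which may be too small because the permutations did not keep the block).

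Over all genes, scaling moved calls from 3250 to 836 for HFD against RD in WT, 1910 to 681 in LPKO and 2773 to 1387 in LFPKO. On HFD it moved them from 1420 to 431 for LFKO and 326 to 573 for LFPKO against WT, 37 to 130 for LFPKO against LPKO and 1179 to 626 for departure from additivity. On RD it moved them from 176 to 394 for LFKO, 617 to 996 for LPKO and 786 to 1358 for LFPKO against WT, and 536 to 861 for LFPKO against LFKO. Diet dependence went from 18 to 49 in LPKO and 3 to 22 in LFPKO. Leaving out HFD WT replicate 2 gave 201 for LFKO and 198 for LPKO against WT on HFD, 423 for departure from additivity on HFD and 921 for HFD against RD in WT. Leaving out HFD LFKO replicate 1 gave 3500 for LFKO against WT, 2439 for LFPKO against LFKO and 2612 for departure from additivity on HFD, and 3984 for HFD against RD in WT. With the compared groups alone, calls were 431 for LFKO on RD, and on HFD 140 for LFKO, 147 for LPKO (from 499), 165 for LFPKO and 267 for LFPKO against LFKO (from 1117). TPM give no depth, so the precision of Jak2, Stat5a and Cux2, the lowest members, is known only from the spread of 3 libraries.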
